A study of Mus musculus with 6 samples.

Results

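The small leucine-rich proteoglycans are a family of secreted matrix proteins, represented here by Epyc, Ogn, Dcn, Bgn, Aspn, Fmod, Lum, Prelp, Omd and Kera. Their transcripts were measured with age in cochleae, the coiled auditory part of the inner ear, from male DBA/2J mice. This strain is known for progressive deafness from a young age. There were 3 samples at 7 weeks and 3 at 36 weeks, and the total RNA of each was read on its own single-colour Affymetrix array. All 6 samples share strain, sex and tissue, and the labels name no treatment. The labels do not say whether a sample was a single mouse or a pool, so the p-values measure the spread between these samples, which may be technical. Members were taken by name, as every probe set annotated with exactly 1 gene symbol that was one of the 10. This gave 20 probe sets of 10 genes, among 22626 probe sets in all and 12393 genes with a probe set of 1 symbol. Of these, 15 probe sets of 8 genes had a mean signal above the 40th percentile (593.6) and were tested. In all 15 the mean of each age was itself above that value. Both Aspn probe sets, the Kera probe set, 1 of Prelp and 1 of Fmod were below it.

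Small leucine-rich proteoglycans carry a core of leucine-rich repeats that binds collagen fibrils, and most carry glycosaminoglycan chains: chondroitin or dermatan sulfate on Dcn, Bgn and Epyc, keratan sulfate on Fmod, Lum and Kera. By sequence the genes listed here fall into class I (Dcn, Bgn, Aspn), class II (Fmod, Lum, Prelp, Omd, Kera) and class III (Epyc, Ogn). They regulate the width and spacing of collagen fibrils, and several bind growth factors of the TGF-beta and BMP families. In the cochlea, collagen-rich matrix fills the spiral ligament, the spiral limbus and the tectorial membrane, and Epyc has been described in supporting cells of the organ of Corti.

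In RefSeq's gene order most of these genes stand beside a relative. Dcn, Lum, Kera and Epyc follow each other without another protein-coding gene between them, as do Aspn, Omd and Ogn, and likewise Prelp and Fmod. Bgn stands apart from the others. The bases before the transcription start are shown for Epyc, the member with the largest fall, for Ogn and Bgn, which also fell, and for Prelp, which did not pass the test. RefSeq (GRCm38.p6, strain C57BL/6J) gives 2 starts for Epyc. Each line holds the 250 bases before a start, 5′ to 3′, in lower case, with capitals where any of 7 searched motifs matched on either strand.
Epyc upstream start, chr10:97643818-97644067 (plus strand): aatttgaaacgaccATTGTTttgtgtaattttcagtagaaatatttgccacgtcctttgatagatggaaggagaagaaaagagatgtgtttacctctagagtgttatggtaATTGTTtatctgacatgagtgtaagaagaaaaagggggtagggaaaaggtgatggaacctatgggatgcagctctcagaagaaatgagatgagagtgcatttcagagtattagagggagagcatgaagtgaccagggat
Epyc downstream start, chr10:97646853-97647102 (plus strand): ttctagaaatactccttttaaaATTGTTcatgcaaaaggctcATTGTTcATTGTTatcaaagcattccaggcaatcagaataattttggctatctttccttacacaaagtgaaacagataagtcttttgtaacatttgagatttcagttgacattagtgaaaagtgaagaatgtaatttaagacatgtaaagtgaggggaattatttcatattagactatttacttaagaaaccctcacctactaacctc
Ogn, chr13:49607765-49608014 (plus strand): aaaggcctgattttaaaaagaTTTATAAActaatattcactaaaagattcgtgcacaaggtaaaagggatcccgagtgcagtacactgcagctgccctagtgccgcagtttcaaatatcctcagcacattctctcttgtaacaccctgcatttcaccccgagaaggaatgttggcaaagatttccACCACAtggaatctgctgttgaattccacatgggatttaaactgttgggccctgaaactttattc
Bgn, chrX:73483351-73483600 (plus strand): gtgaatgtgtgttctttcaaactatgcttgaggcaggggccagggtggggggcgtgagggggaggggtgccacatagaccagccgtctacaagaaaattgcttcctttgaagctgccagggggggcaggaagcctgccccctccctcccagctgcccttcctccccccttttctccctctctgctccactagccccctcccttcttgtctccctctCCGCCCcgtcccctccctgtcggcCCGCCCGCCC
Prelp, chr1:133921402-133921651 (minus strand): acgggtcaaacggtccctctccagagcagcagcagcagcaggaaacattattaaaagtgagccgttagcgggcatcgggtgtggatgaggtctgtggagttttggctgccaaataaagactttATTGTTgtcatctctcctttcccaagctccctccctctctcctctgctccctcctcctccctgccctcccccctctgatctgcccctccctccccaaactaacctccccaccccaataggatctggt

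The motifs were the TATA box (TATAAA), a SOX core (AACAAT), the GC box (GGGCGG), a RUNX core (TGTGGT), an AP-1 site (TGAGTCA), a SMAD box (GTCTAGAC) and an E-box (CACCTG), chosen after the expression values were known. The SOX core was present in both Epyc windows, with 2 matches before the upstream start and 3 before the downstream start, and 1 match lay before Prelp, all as the reverse complement (ATTGTT). It occurred in 5 of the 9 windows of the 8 members with a promoter entry, and in 9.42% of all 32851 windows of this length. The other member windows with it were those of Aspn and Kera, which were below the filter, and Kera held it in both orientations. The Epyc windows held 39.2% and 31.2% G and C, against a median of 52.4% over all windows, and this motif is itself rich in A and T. The Ogn window held 2 overlapping TATA box matches on opposite strands, 222 to 229 bases before the start, and 1 RUNX core; the TATA box occurred in 12.4% of all windows and the RUNX core in 14%. The Bgn window, at 64.4% G and C, held 3 GC box matches, 2 of them overlapping, which 32.7% of all windows had at least once. The AP-1 site, the SMAD box and the E-box, present in 4.46%, 0.167% and 17.2% of all windows, matched in 0 of the 9. These matches describe letters and were not tied to binding.

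Small leucine-rich proteoglycan transcripts were lower at 36 weeks in 7 of the 8 listed genes tested, and Epyc fell far more than the rest. Its signal at 36 weeks was 7.82% of that at 7 weeks, while Ogn, Dcn and Omd stood at 46.8%, 49.2% and 48.2% and Bgn, Lum and Fmod between 65.5% and 71.6% by their brightest probe sets. Prelp did not pass the test. By probe set, 13 of the 15 tested were lower and 0 were higher (limma, Benjamini-Hochberg adjusted p under 0.05), where 17.7% of all 13575 tested probe sets were lower and 16.7% higher. By gene, each represented by its brightest tested probe set, the share lower among all 8555 genes was 17.6% and the share higher 17.5%. At least 2-fold falls were seen in 7 of the 15 probe sets, against 4.09% of all tested. The 3 values of each age did not overlap, with 36 weeks lower, in 13 of 15, against 24.1% of all tested. The median log2 difference, 36 weeks minus 7 weeks on the log2(signal + 50) scale, was -0.82 over the 8 genes, -0.63 without Epyc and 0.02 over all genes tested. In bulk tissue, fewer cells of a type, less RNA per cell and a different mix of tissues in the samples cannot be told apart. The deposited signals share a trimmed mean across arrays, so each signal is relative to the other RNA on its array.

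**Figure D1:**
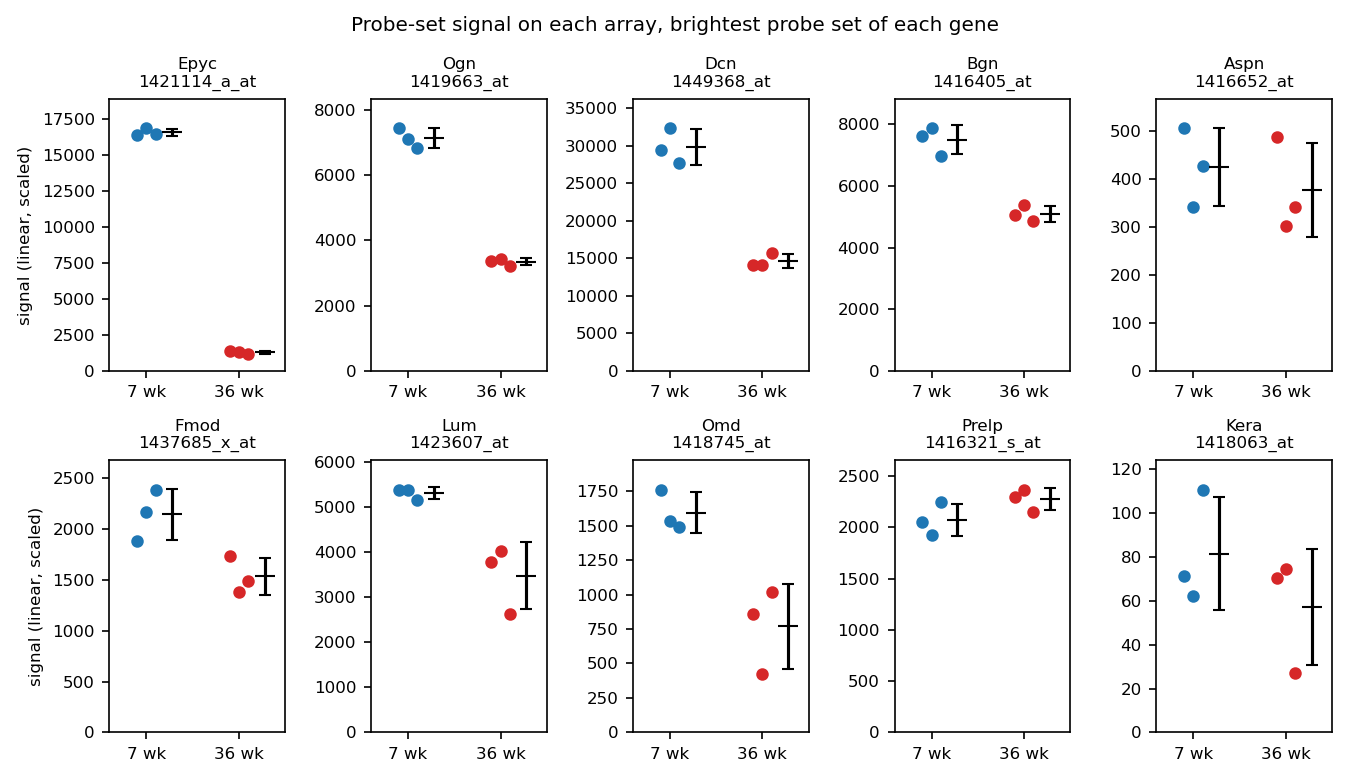
Linear, scaled signal on each of the 6 arrays for the brightest probe set of each of the 10 genes (blue, 7 weeks; red, 36 weeks; black bar, mean ± SD, n = 3; each panel has its own axis from 0). The ages are separate for Epyc, Ogn, Dcn, Bgn, Fmod, Lum and Omd, and overlap for Aspn, Prelp and Kera.

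Epyc, epiphycan, a class III member first known from cartilage, read 16370.9, 16846.7 and 16417.9 in the young samples and 1394.5, 1286.1 and 1200.9 in the old. The 2 ages lay far apart and the arrays within an age close together. The mean fell from 16545 ± 262.2 to 1294 ± 97.0 (SD, n = 3), 12.8-fold. The log2 difference was -3.63 ± 0.09 (SE), with a 95% confidence interval of -3.83 to -3.43 and an adjusted p of 6.23e-10. Only 2 of the 13575 tested probe sets had a larger fall, those of Myl3, a myosin light chain, and Mucl2, a mucin-like gene, with log2 differences of -4.20 and -3.77. Epyc is measured by a single probe set, so no second probe set bears on its size.

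The fall of Epyc was set against that of each of the other 9 genes as the change in the log2 ratio of their signals on the same array. Against Omd, the nearest, Epyc fell by 2.54 more (SE 0.38), against Ogn by 2.55 (SE 0.06) and against Dcn by 2.61 (SE 0.12). Against Prelp the difference was largest, at 3.76 (SE 0.09). In all 9 comparisons the ratios of the 2 ages did not overlap, and the exact two-sided permutation p was 0.1, the smallest that 3 arrays against 3 allow (0.231 after adjustment over the 30 ratios computed). Epyc is the member with the largest fall in these same data, so the direction of these differences was given beforehand. The comparisons describe sizes and are no separate support. Aspn and Kera were below the filter, so the sizes of their ratios are not given. Against Lum, which lies in the same run of genes as Epyc with Kera between them, the excess of Epyc was 3.00 (SE 0.15).

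Ogn, osteoglycin or mimecan, the other class III member, had signals of 7443.9, 7119.1 and 6832.1 at 7 weeks and 3379.1, 3424.4 and 3218.1 at 36 weeks on its brighter probe set. The ages did not overlap and the mean fell 2.13-fold, a log2 difference of -1.08 ± 0.08 with an adjusted p of 5.19e-06. Its dimmer probe set fell by 1.35 ± 0.15, from a mean of 3387 ± 618.1 to 1286 ± 80.6, with an adjusted p of 5.79e-05. The changes of these 2 probe sets differed by 0.27 (SE 0.20), with overlapping ratios.

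Dcn, decorin, the class I proteoglycan that caps collagen fibrils and binds TGF-beta, had signals of 29489.9, 32374.1 and 27684.9 at 7 weeks. At 36 weeks they were 14127.9, 14111.7 and 15775.4. Every array of 36 weeks was below every array of 7 weeks, and the mean fell 2.03-fold, a log2 difference of -1.02 ± 0.08 (adjusted p = 4.33e-06). Of all tested probe sets, 3.96% had a larger fall than Dcn and 0.0147% a larger one than Epyc.

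Bgn, biglycan, a close relative of Dcn that is abundant in bone and cartilage, was read by 3 probe sets, all lower at 36 weeks. The brightest had signals of 7632.9, 7878.2 and 6978.4 at 7 weeks and 5049.1, 5382.2 and 4871.5 at 36 weeks, a log2 difference of -0.55 ± 0.09 (adjusted p = 0.000635). The other two had log2 differences of -0.86 ± 0.14 and -1.04 ± 0.13, with adjusted p-values of 0.00107 and 0.000176. All 3 put the ages apart, but they gave falls of different size: the brightest fell by 0.49 (SE 0.14) less than the dimmest, and the ratios of the ages did not overlap. The dimmest carries the _x_at ending, which marks probes that can bind related transcripts. Aspn, asporin, the class I member without a glycosaminoglycan chain that is named for its run of aspartates, was dim. Its brighter probe set had signals of 507.1, 342.4 and 427.9 at 7 weeks and 487.7, 303.2 and 341.6 at 36 weeks. The ages overlapped. In the fit without a filter its log2 difference was -0.16 (95% confidence interval -0.90 to 0.57), and that of the dimmer probe set was -0.74 (-1.85 to 0.38). Both intervals overlap that of Dcn in the same fit (-1.20 to -0.84), so a smaller change of Aspn than of Dcn was not shown.

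Among class II members, Lum, lumican, a keratan sulfate proteoglycan needed for ordered collagen fibrils in cornea and skin, had signals of 5374.4, 5383.3 and 5151.0 at 7 weeks and 3773.7, 4021.7 and 2623.6 at 36 weeks. The ages did not overlap, although 1 array of 36 weeks was lower than the other two. Lum fell 1.53-fold, by 0.63 ± 0.14 on the log2 scale (adjusted p = 0.00702). Omd, osteomodulin, known from mineralised tissue, had signals of 1761.9, 1531.4 and 1491.6 at 7 weeks and 862.3, 424.8 and 1020.9 at 36 weeks. The older arrays were all lower but spread widely, and Omd fell 2.07-fold, by 1.08 ± 0.27 (adjusted p = 0.0110). Without array 2 of 36 weeks, the lowest, its log2 difference was -0.73 with an adjusted p of 0.0115.

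Fmod, fibromodulin, which binds type I and II collagen and is abundant in tendon and cartilage, had 6 probe sets that did not give a single size of change. The brightest had signals of 1888.0, 2167.4 and 2391.0 at 7 weeks and 1740.1, 1384.6 and 1490.7 at 36 weeks. The ages were just separate, with a fall of 0.47 ± 0.14 (adjusted p = 0.0261). This call did not hold without array 2 or 3 of either age (adjusted p from 0.0663 to 0.0916), and the count of genes lower was then 6 in place of 7. The other 3 tested _x_at probe sets fell 1.91-fold to 2.05-fold, with adjusted p-values from 0.000207 to 0.00708. The fifth tested probe set has no such ending and is the only one of Fmod that the annotation ties to a transcript accession. Its signals of 2241.0, 2049.9 and 1403.5 at 7 weeks and 1932.4, 1392.4 and 1619.6 at 36 weeks overlapped, with a log2 difference of -0.18 ± 0.19 (adjusted p = 0.489). The 6th probe set, below the filter, differed by -0.62 (95% confidence interval -1.39 to 0.15). The ratio of the probe set without the ending to the _x_at one with the largest fall separated the ages (0.82, SE 0.22). The mean of the 5 tested Fmod probe sets gave a log2 difference of -0.70 with an adjusted p of 0.00141. Over all genes with several probe sets, 4 of 21 ratios between probe sets of the same gene separated the ages.

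Prelp, which links basement membranes to the matrix beneath them, was the tested member gene that did not pass. Its brighter probe set had signals of 2048.9, 1928.6 and 2241.9 at 7 weeks and 2297.0, 2367.5 and 2153.3 at 36 weeks. The ages overlapped and the log2 difference was 0.13 ± 0.11, with an adjusted p of 0.411 and a 95% confidence interval of -0.12 to 0.39. That interval does not reach the falls of the other tested member genes by their brightest probe sets. The smallest of these was -0.47 for Fmod, the neighbour of Prelp. The interval of the Fmod probe set without the _x_at ending, -0.60 to 0.24, overlaps that of Prelp. The other Prelp probe set, with mean signals of 113.8 and 93.8, was too dim to test. Kera, keratocan, a keratan sulfate proteoglycan of the cornea, was the dimmest member. It read 71.2, 62.3 and 110.7 at 7 weeks and 70.4, 74.4 and 26.9 at 36 weeks, with overlapping ages and a log2 difference of -0.31 (95% confidence interval -1.04 to 0.43) without a filter.

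**Figure D2:**
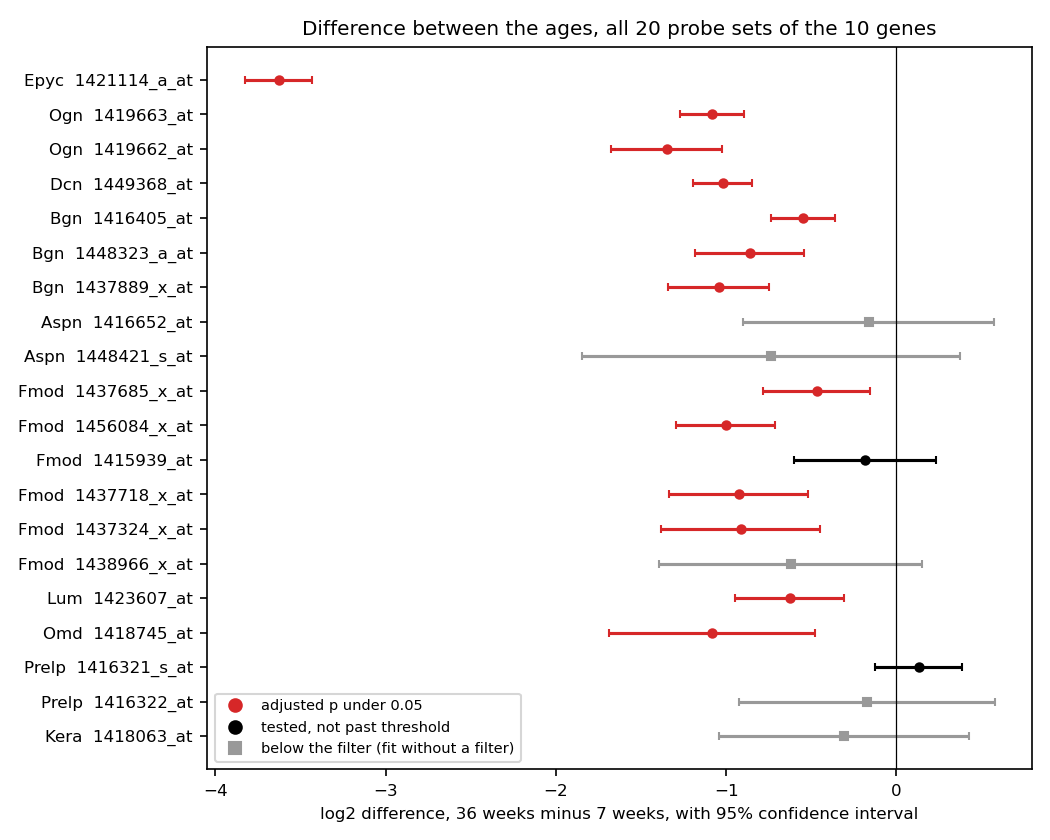
Log2 difference, 36 weeks minus 7 weeks, with its 95% confidence interval for all 20 probe sets (red, adjusted p under 0.05; black, tested and not past it; grey squares, below the filter and fitted without one). Epyc stands at -3.63, the other red points lie between -1.35 and -0.47, and the Prelp probe set at 0.13 is the only one above 0.

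By class, the 2 tested class I genes had log2 differences of -1.02 and -0.55, the 4 tested class II genes ranged from -1.08 to 0.13, and the class III genes Epyc and Ogn stood at -3.63 and -1.08. With so few genes a class, the classes were not tested against each other. Gene neighbours also differed: Prelp at 0.13 lies next to Fmod at -0.47, while Omd and Ogn, adjacent as well, both had -1.08.

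**Figure D3:**
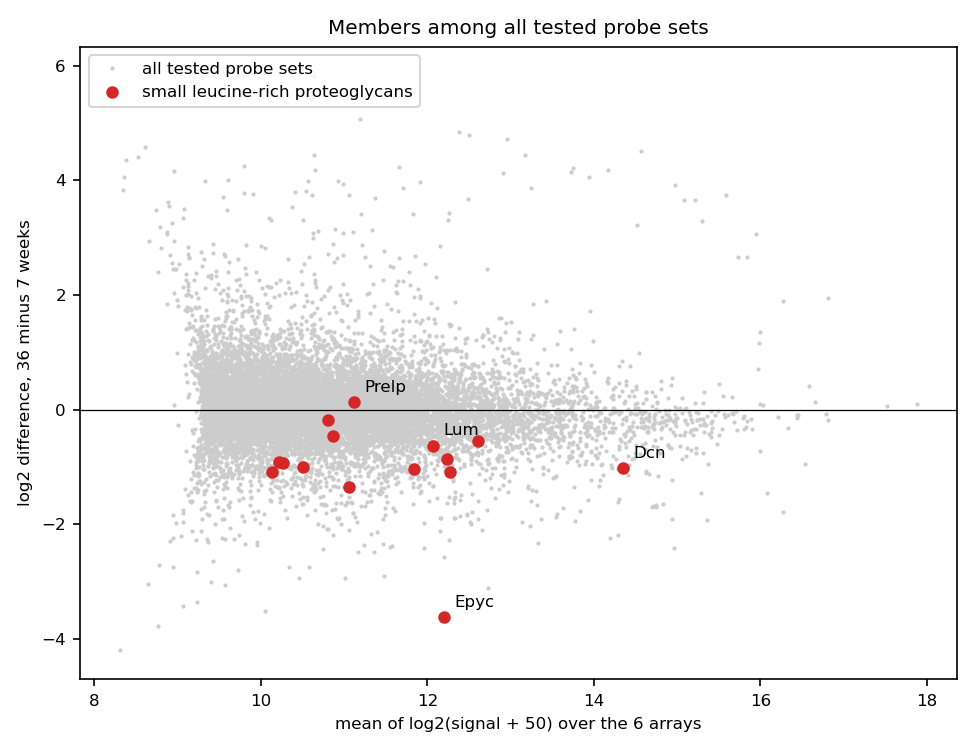
Log2 difference, 36 minus 7 weeks, against the mean of log2(signal + 50) over the 6 arrays for all 13575 tested probe sets (grey) and the 15 tested probe sets of the family (red). Epyc at -3.63 lies at the lower edge of the cloud, and 14 of the 15 red points are below 0.

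The profiles most like that of Epyc over the 6 arrays, by Euclidean distance between centred log2 signals, were those of Myl1 (0.73), Sln (0.75), Myl3 (0.76), Vip (0.90) and Pgam2 (0.96). This measure is dominated by the size of the difference between the ages. Myl1, Sln, Myl3 and Pgam2 are genes of striated muscle, with log2 differences of -3.12, -3.52, -4.20 and -2.94, and Vip, a neuropeptide, had -2.95. None of the other small leucine-rich proteoglycans was among them.

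The collagens that the family binds were mostly lower as well. Counts of this list and of those below stand beside 17.6% lower and 17.5% higher over all 8555 genes. Of 16 tested genes for fibril-forming and fibril-associated collagens, 11 fell and 1 rose, with a median log2 difference of -0.78. Col3a1, of type III collagen, fell 3.01-fold (-1.57 ± 0.09) and Col11a2, which nucleates fibrils in cartilage, 2.13-fold (-1.07 ± 0.10). Col1a1, a chain of type I collagen, went the other way, from 11820 ± 1720 to 17084 ± 1923 (0.53 ± 0.12, adjusted p = 0.00497), while its partner chain Col1a2 differed by -0.62 ± 0.06. Col1a2 was singled out after its value was seen.

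Of the growth factor genes tied to the family, 8 of 16 tested TGF-beta and BMP ligands, receptors and matrix partners fell and 1 rose, with a median of -0.54. Bmp6 fell 3.50-fold (-1.75 ± 0.14) and Tgfbr2, the type II receptor of TGF-beta, 1.94-fold (-0.94 ± 0.09). Tgfb1, a ligand that Dcn binds, rose 1.72-fold (0.76 ± 0.13, adjusted p = 0.00129). Without array 3 of 7 weeks 2 genes of this list rose. Of 9 cell surface receptors that have been reported to bind family members, 0 fell and 2 rose, Cd44 by 1.09 ± 0.14 and Igf1r by 0.67 ± 0.15, with a median of 0.23. At the shares over all genes (17.6% lower, 17.5% higher) a list this short holds few calls.

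Genes that build the glycosaminoglycan chains showed few falls, but few calls are to be expected in lists this short. Over all genes 17.6% were lower and 17.5% higher. Of 15 tested genes of chondroitin and dermatan sulfate synthesis, 0 fell by limma and 4 rose, with a median of 0.17. Chpf, a chondroitin polymerising factor, rose 2.03-fold (1.01 ± 0.13) and B3gat3, which completes the linker to the core protein, 1.65-fold (0.71 ± 0.12). Chst12 and Chpf2, named after their values were seen, rose by 1.60 ± 0.36 and 0.45 ± 0.14. With each array centred on its median, or with the filter at the 60th percentile, 2 genes of this list fell, and 1 fell with quantile normalization, with the replicate block or without array 3 of 7 weeks. Of 5 tested keratan sulfate genes, Chst2, a sulfotransferase, fell by 0.51 ± 0.15 and B4galt1, a galactosyltransferase, rose by 0.41 ± 0.11. The list had 0 genes lower without array 1 of either age, 2 lower without array 2 of 36 weeks or with centred arrays, and 0 higher without array 2 of either age.

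Proteases that can cut the family gave no shared direction, with 3 of 10 lower and 1 higher and a median of -0.14. The shares over all genes were 17.6% lower and 17.5% higher, for this list and the next ones. Mmp14, a membrane-bound collagenase, and the aggrecanases Adamts5 and Adamts1 fell, with log2 differences of -0.62 ± 0.13, -0.73 ± 0.17 and -0.44 ± 0.14, Adamts1 being named after its value was seen. Mmp9, a gelatinase that granulocytes store, rose 4.24-fold (2.05 ± 0.11). Without array 1 of 7 weeks or array 3 of 36 weeks 2 of these genes rose. The counts depend on the probe set chosen. Mmp2 did not pass by its brightest (-0.46, adjusted p = 0.269), but another of its probe sets was lower (-1.16, adjusted p = 1.41e-05, limma). Ctsb did not pass by its brightest (-0.08), and its others were at -0.57 (adjusted p = 0.00275) and 0.18 (adjusted p = 0.38). Among 8 large proteoglycans and their partners 1 fell and 2 rose, with a median of 0.34: Acan, aggrecan, fell by 0.76 ± 0.12, and Prg4, lubricin, and Comp rose by 2.50 ± 0.14 and 1.08 ± 0.20. With the filter at the 60th percentile 1 of this list rose. Of 9 other leucine-rich repeat matrix proteins only 2 had a probe set of 1 symbol, Chad and Optc, and Optc was below the filter. Chad, chondroadherin, rose 2.62-fold, from 932.5 ± 73.9 to 2448 ± 257.8 (1.34 ± 0.14, adjusted p = 4.05e-05). Chad and Optc are relatives outside the 10 genes listed as the family here. The counts of the family therefore leave out the rise of Chad.

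**Figure D4:**
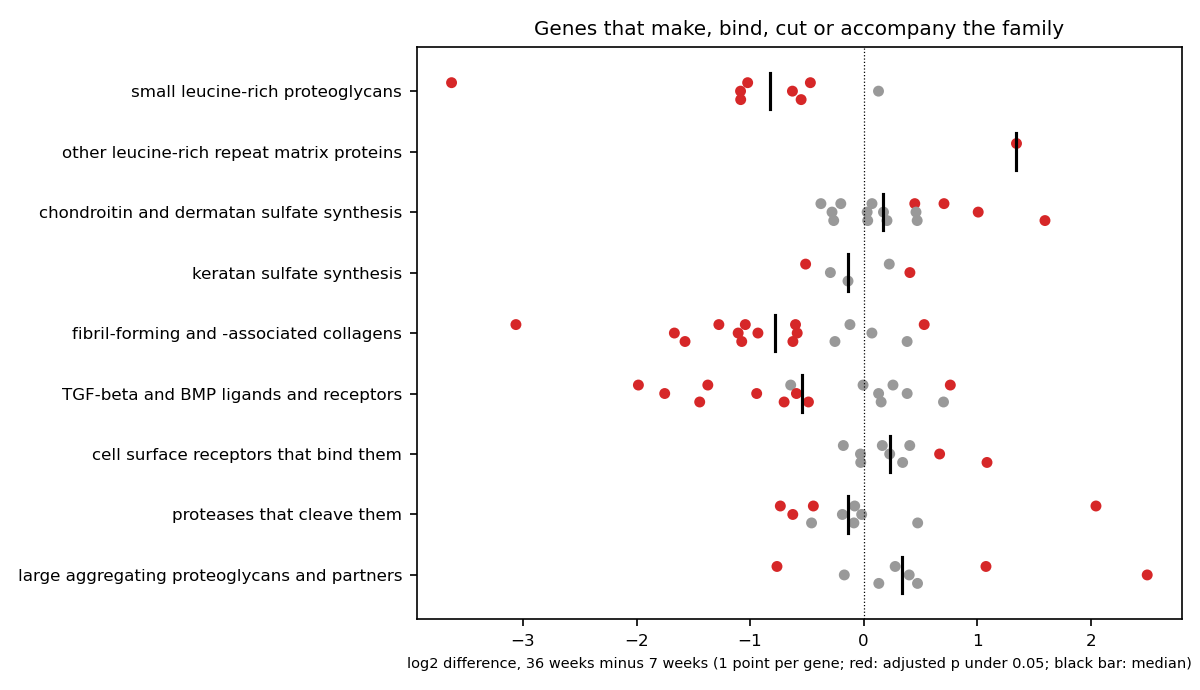
Log2 difference, 36 weeks minus 7 weeks, of each tested gene (1 point per gene, red for adjusted p under 0.05) in the family and in 8 lists of related genes, with the median of each as a black bar. The medians of the family (-0.82) and of the collagens (-0.78) are the lowest, and that of chondroitin and dermatan sulfate synthesis is 0.17.

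Markers of several cell and tissue types differed between the ages on the same arrays, and their part in the falls above was not tested. Among them are tissues that are not cochlea: skeletal muscle, airway epithelium and pituitary. Some genes are in more than 1 list, among them Acan, Comp, Col1a1 and Col3a1. The summed signal of 9 spiral ligament fibrocyte genes, among them Coch and Otos, lay between 250148 and 259403 at 7 weeks and between 62853 and 65158 at 36 weeks, with 8 of 9 lower. These sums hold Car3, a gene that skeletal muscle also expresses, with means of 48200 at 7 weeks and 14920 at 36 weeks. Of 6 tested cartilage genes 5 fell and 1, Comp, rose, and the sum over 10 went from 21043 to 22498 down to 8757 to 9784. Of 6 tested supporting cell and tectorial membrane genes 4 fell and 1, Lfng, rose, though 0 rose without array 1 or array 2 of either age, and their sums were 13401 to 14958 and 8814 to 9348. Fibroblast and tendon genes were 4 lower and 1 higher of 9, with sums of 40917 to 44977 and 36517 to 41094, which overlap. Osteoblast and osteocyte genes were 4 lower and 1 higher of 7 (1 lower with the filter at the 60th percentile), and their sums overlapped too, at 19099 to 25028 and 19457 to 23413. In both lists the 1 higher gene was Col1a1, a large part of these sums, with means of 11820 and 17084. The 4 lower fibroblast genes were Pdgfra, Col3a1, Fap and Fbln1 (-2.37, -1.57, -1.13 and -0.62). The 4 lower osteoblast genes were Ibsp, Mepe, Phex and Dmp1 (-3.02, -2.64, -1.84 and -1.35). Overlap of these sums therefore does not show that the other genes were unchanged. Skeletal muscle genes were lower in 12 of 12, with sums of 328561 to 350240 and 119923 to 125862.

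Other types rose. The granulocyte genes were higher in 12 of 12, with sums of 49883 to 55314 and 700615 to 746045. Secretory airway epithelium genes were higher in 8 of 8, with sums of 151418 to 164448 and 561027 to 604768, and pituitary genes in 5 of 5 (3 without array 3 of 36 weeks), with sums of 6202 to 7136 and 76649 to 82055. Of 11 hair cell genes, 5 (Cdh23, Gfi1, Pcdh15, Pou4f3 and Slc26a5) were below the filter, and 3 of the 6 tested fell, with a median log2 difference of -0.24 and sums of 32726 to 35656 and 17162 to 20001. Most of these sums is Calb2, a calcium buffer that neurons also express, with means of 26266 ± 744.3 and 11956 ± 1510 (SD, n = 3). Of the defining fibroblast and cartilage markers, Scx, Tnmd, Hapln1, Matn1, Matn3 and Snorc were below the filter.

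**Figure D5:**
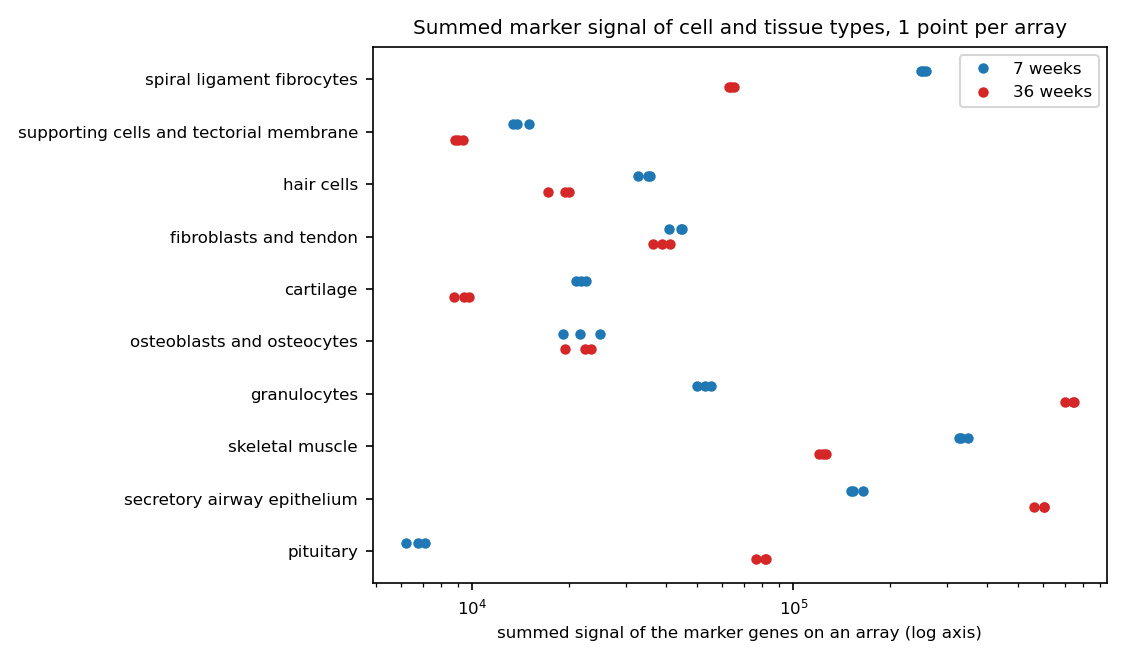
Summed signal of the marker genes of 10 cell and tissue types on each array (log axis; blue, 7 weeks; red, 36 weeks). The spiral ligament, cartilage and muscle sums are lower and the granulocyte, airway and pituitary sums higher at 36 weeks, while the fibroblast and osteoblast sums of the ages overlap. Both of the overlapping sums hold Col1a1, a bright gene that rose.

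The array medians were 766.3 to 800.5 at 7 weeks and 844.0 to 859.4 at 36 weeks. Centring each array on its median moved the median difference of all tested probe sets by -0.10 and the share of calls that were lower from 51.4% to 64.0%. The count of the family's probe sets called lower was 13 with either scaling, and the log2 difference of Epyc was -3.73 after centring.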

How the data were processed

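The deposited values are intensity values, linear probe-set signals of 6 single-colour arrays of biotin-labelled cRNA, per the labels' protocols. The summarising software was not given in the sources used here. The authors' values share a trimmed mean between 1490 and 1493 on all arrays, and their absolute scale is unknown. Gene names came from the platform's annotation. RefSeq (GRCm38.p6) gave gene order and promoters.

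With R 4.3.3 and limma 3.58.1, log2(signal + 50), which understates changes of dim probe sets, was fitted (lmFit, eBayes with intensity trend, unpaired, two-sided) for the 13575 probe sets with a mean linear signal above the 40th percentile, with Benjamini-Hochberg adjustment over all and a threshold of 0.05. The fit was tested on simulated data. Figures used Python 3.11.15 and matplotlib 3.10.9. The number of arrays limits the precision. The members and lists were chosen with earlier results of these data known. All member probe sets are named, and of each list the 2 genes with the smallest p per direction past the threshold. Alternatives varied offset, scaling, filter, variance prior, threshold, probe set choice, replicate block and arrays.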

Additional observations from a re-analysis of the deposited data

How the results depend on the processing

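The 13 probe sets and 7 genes called lower stayed at those counts with offsets of 1 and 16, quantile normalization, median centring, no filter, a filter at the 60th percentile and no intensity trend. Leaving out 1 array gave 12 to 13 probe sets and 6 to 7 genes. With at least 2-fold required, 7 probe sets and 4 genes were lower, and over all probe sets 555 were lower and 698 higher. At an adjusted p under 0.01 these were 1504 and 1390, against 2398 and 2267, with 11 probe sets and 5 genes of the family. Without probe sets ending in _x_at or _s_at, an alternative chosen after seeing the data, 8 were lower. Of the 15 tested probe sets 6 carry these endings, among them the only tested one of Prelp. Fmod then has no call, since its remaining tested probe set did not pass (-0.18, adjusted p of 0.489 by limma in the main fit). With all 9 pairs at least 1.5-fold apart 7 were lower. For this count and the one before it the share over all tested probe sets was not computed. Of 216 values of single probe sets under the alternatives 4, all of Fmod, lost their call and 0 changed sign. Of 576 counts of the related lists 51 moved by over 1.5 times.

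Same-numbered samples of the 2 ages did not deviate together (correlations of 0.05, -0.01 and -0.00), so the numbers do not pair them. With the replicate block 13 probe sets of the family were lower, and 2254 and 2121 over all.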
